A study of Mus musculus with 45 samples.

Results

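AMPA receptors carry most of the fast excitatory current at synapses. This report follows the transcripts of 10 genes of that receptor: the 4 pore subunit genes Gria1, Gria2, Gria3 and Gria4, the 4 genes Cacng2, Cacng3, Cacng4 and Cacng8, which encode the transmembrane AMPA receptor regulatory proteins (TARPs) stargazin, γ-3, γ-4 and γ-8, and the cornichon genes Cnih2 and Cnih3. They were chosen by name, through the match of Ensembl identifiers to gene symbols, and all 10 were found among the 54532 rows of the count table. They were measured by RNA-seq in hippocampal primary neurons from newborn C57BL/6N mice, grown with rat serum, with AraC added on day 3 in vitro and treatment, per the labels, on day 10 or 11. Control cultures received no treatment. Other cultures received bicuculline (Bic, 50 µM), the GABA type A receptor antagonist that induces action potential (AP) firing, for 0.5, 1 or 2 h. In the short protocol (SP), 0.5 h of Bic was followed by a further 0.5 h in Bic with tetrodotoxin (TTX, 1 µM), the sodium channel blocker that stops AP firing, or with TTX and NMDA (30 µM), which activates NMDA receptors including those outside synapses. In the long protocol (LP), cells spent 1 h in Bic and another 1 h in Bic plus TTX, TTX/NMDA or the glutamate uptake blocker TBOA (50 µM). These 9 conditions had 1 library from each of 5 culture preparations, numbered 1, 3, 6, 7 and 8, which makes 45 libraries.

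A functional AMPA receptor is a tetramer of pore subunits, named GluA1 to GluA4 after the genes that encode them. GluA2 decides whether the channel passes calcium: its transcript is edited by the adenosine deaminase ADAR2 (gene Adarb1) at one glutamine codon of the pore loop, and receptors with edited GluA2 are nearly impermeable to calcium. TARPs and cornichons bind the tetramer, help it to leave the endoplasmic reticulum and slow its closing, and TARPs also anchor it at the synapse. Stargazin is known from the mutant mouse of that name, and γ-8 is the TARP that marks the hippocampus. Such receptors matter for excitotoxicity because their depolarization of the cell unblocks NMDA receptors and because those without GluA2 admit calcium themselves.

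The stretch of coding sequence around the edited codon shows how alike the 4 pore subunit genes are and where GluA2 is set apart. The sequences are from the GENCODE M21 transcripts (GRCm38), 72 bases each on the sense strand, with the glutamine codon in capitals. The Gria1 stretch is at chr11:57243046-57243117 (+ strand, exon 11 of 16), that of Gria2 at chr3:80706890-80706961 (− strand, exon 11 of 16), that of Gria3 at chrX:41610217-41610288 (+ strand, exon 11 of 16) and that of Gria4 at chr9:4464116-4464187 (− strand, exon 12 of 17), all coding.
Gria1: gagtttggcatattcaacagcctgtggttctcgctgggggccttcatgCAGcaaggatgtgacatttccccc
Gria2: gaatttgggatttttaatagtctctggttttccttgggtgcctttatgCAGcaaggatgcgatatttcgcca
Gria3: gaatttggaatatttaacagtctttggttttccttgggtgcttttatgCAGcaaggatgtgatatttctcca
Gria4: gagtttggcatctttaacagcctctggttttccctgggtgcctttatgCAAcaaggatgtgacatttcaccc
The genomic codon is CAG in Gria1, Gria2 and Gria3 and CAA in Gria4, so the codon itself does not set Gria2 apart from Gria1 and Gria3. The edit is made in the RNA, and read counts per gene do not show it. Gria1 and Gria2 differed at 16 of these 72 bases, and Gria2 and Gria3 at 7. A read was 75 cycles long. None of the stretches of 75 bases in any annotated transcript of the 10 genes occurred in a transcript of another of the 10. At most 0.749% of such stretches, in Cacng8, occurred in the transcripts of any other gene, there the microRNA model Gm23450. Reads can thus be told apart between these paralogs.

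The 10 protein-coding genes are spread over 8 chromosomes (GRCm38, GENCODE M21). Gria1 (ENSMUSG00000020524) lies at chr11:57011387-57330244, Gria2 (ENSMUSG00000033981) at chr3:80681450-80802835, Gria3 (ENSMUSG00000001986) at chrX:41400854-41678601 and Gria4 (ENSMUSG00000025892) at chr9:4417896-4796234. The TARP genes Cacng2 (ENSMUSG00000019146), Cacng3 (ENSMUSG00000066189), Cacng4 (ENSMUSG00000020723) and Cacng8 (ENSMUSG00000053395) lie at chr15:77991748-78120028, chr7:122670492-122769393, chr11:107732357-107794557 and chr7:3390683-3415648. Cnih2 (ENSMUSG00000024873) lies at chr19:5092868-5098521 and Cnih3 (ENSMUSG00000026514) at chr1:181352628-181460641. Exons of Gria2, Gria3, Gria4 and Cacng8 overlap microRNA models on their own strand (Gm25749, Gm22413, Gm23811 and Gm23450), and reads that fell on both genes were not counted. Exons of Cacng2 and Cnih2 overlap genes on the other strand (A730060N03Rik and Yif1a), and the counting used strand.

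Marker genes were checked against the labelled cell type. All 5 neuronal markers were detected in all 45 libraries, as were the 3 glutamatergic, the 4 GABAergic and the 6 astrocyte markers, so the cultures hold several cell types that can express AMPA receptor genes. Among the scarcer types, Sox10 of the oligodendrocyte lineage was at 0 in 5 libraries, P2ry12 of microglia in 6 and Cldn5 of endothelial cells in 27. Libraries held 11316580 to 81129276 counts, a 7.17-fold range. Each of the 10 genes had at least 497 reads in every library and passed the count filter in all comparisons. Levels are given below as normalized read counts, that is, counts scaled by edgeR's trimmed mean of M values (TMM) to a common library size.

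All 10 genes were well expressed in the untreated cultures. Per kilobase of annotated exons, where levels can be compared between genes, Cnih2 was highest, with 8323 ± 951 normalized reads (SD, n = 5), followed by Gria1 with 4504 ± 549 and Gria2 with 1336 ± 63.0. Cacng8 was the leading TARP with 1156 ± 158. Below it came Cnih3 (843 ± 74.6), Cacng2 (733 ± 44.7), Cacng4 (728 ± 85.9), Gria4 (653 ± 45.8), Cacng3 (482 ± 115) and Gria3 (403, range 338 to 446). Between neighbours in this order, the libraries of Cnih2 and Gria1 did not overlap, nor did those of Gria1 and Gria2, and all other neighbours overlapped. The place of Gria2 and Gria3 depends on what is counted as length. Their annotated exons add up to 15548 and 9859 bases, with many alternative ends. With the length of the principal transcript in place of all exons (10371 and 5192 bases), the Gria2 level was 2003 ± 94.5 and that of Gria3 764 ± 75.9, above Cacng4 and Cacng2, while Cnih2, Gria1, Gria2, Cacng8 and Cnih3 remained the first 5.

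**Figure D1:**
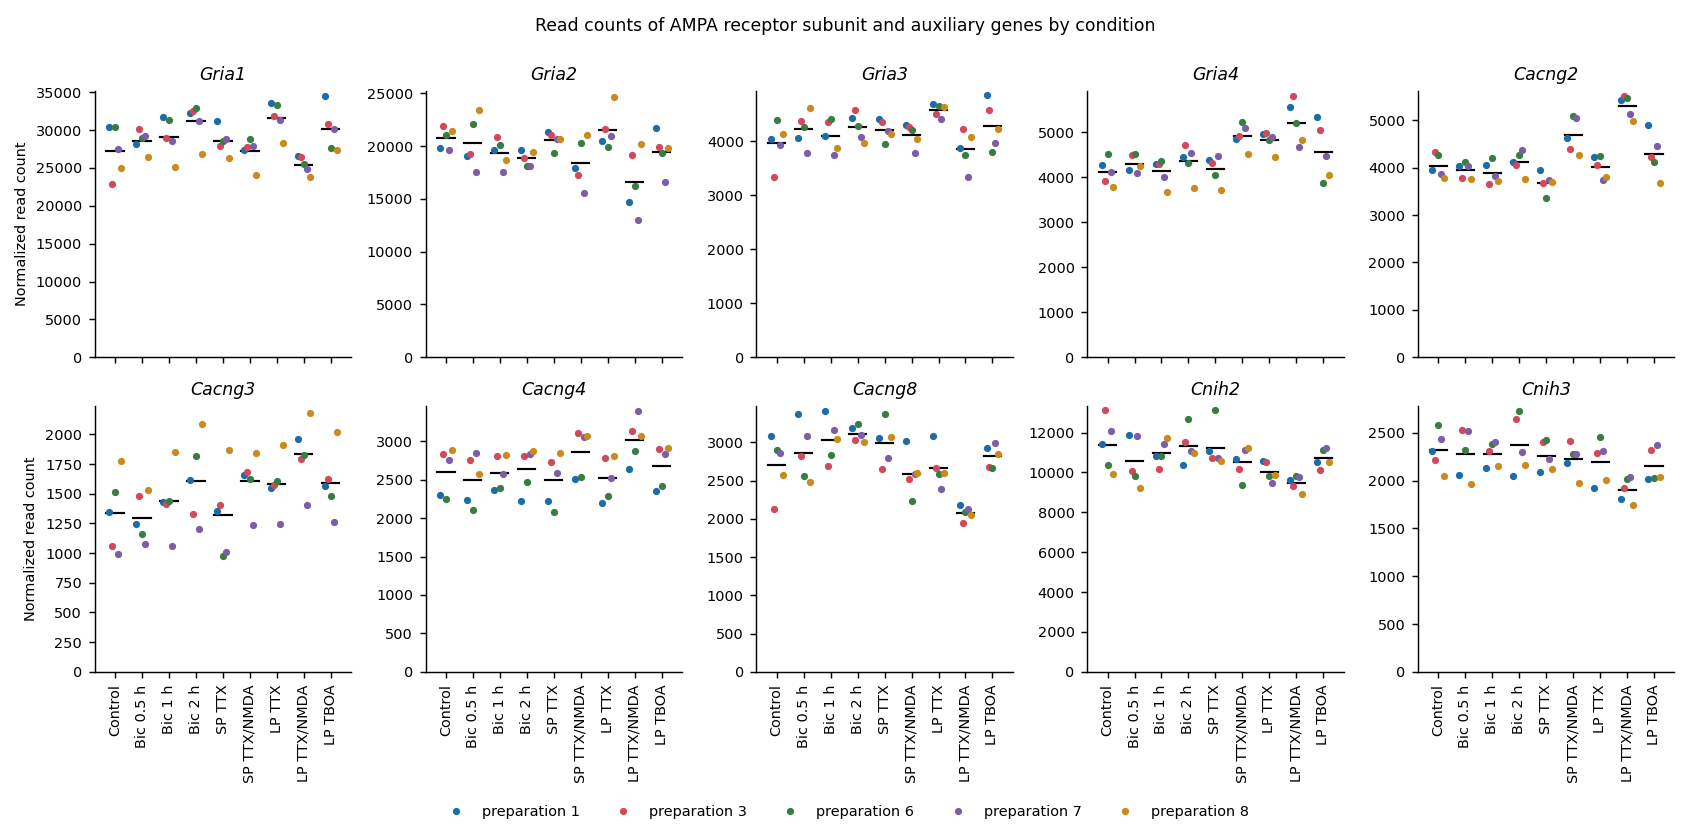
Normalized read count (y axis, linear from 0) of each of the 10 genes in the 9 conditions. Each point is 1 library, coloured by culture preparation, and the black bar is the mean of 5. The mean of Cacng2 is highest (5304) and that of Cacng8 lowest (2082) in the LP with TTX/NMDA.

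The first question was whether AP firing itself moves the receptor transcripts. No member passed the test within 1 h. After 0.5 h of Bic, log2 fold changes against the control lay between −0.11 and 0.09, and after 1 h between −0.11 and 0.16. No member was called, that is, reached an adjusted p under 0.05 (edgeR quasi-likelihood test, Benjamini-Hochberg over all genes tested), and none had an unadjusted p under 0.05. Among all genes 0.289% and 1.16% were called. The 95% intervals of the 10 members lay within −0.29 to 0.26 and −0.27 to 0.34. These bounds are the extremes over the 10 genes and not a limit of detection. Changes inside a member's own interval remained compatible with its data.

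After 2 h of Bic, 0 of 10 members were called and 4 had an unadjusted p under 0.05, against 9.02% of all genes called (4.24% higher, 4.78% lower). Cacng3, which encodes γ-3, had the largest difference, with 1338 normalized reads in the control and 1612 after 2 h Bic. Its counts in preparations 1, 3, 6, 7 and 8 were 1346, 1064, 1511, 997 and 1773 in the control and 1614, 1333, 1819, 1208 and 2085 after 2 h. The preparations differ by more than the treatment, so the groups overlap, but each preparation rose, by 20.8% ± 2.78 (SD, n = 5), with a range of 17.6 to 25.2%. A second fit, the paired fit, had the preparation as a block and took only genes kept by filterByExpr. There, Cacng3 was called higher (log2 fold change 0.27 ± 0.0502 SE, adjusted p = 0.00163), as were Gria1 (0.19 ± 0.0641, adjusted p = 0.0383) and Cacng8 (0.21 ± 0.0645, adjusted p = 0.0306). The size of both rests in part on preparation 3, whose control library was the lowest for each gene: Gria1 was 42.4% higher there, and Cacng8 had 2134 normalized reads in the control and 3030 after 2 h. Without it the paired log2 fold changes were 0.12 for Gria1 (adjusted p = 0.0292) and 0.14 for Cacng8 (adjusted p = 0.0266). Both calls were lost without preparation 6, 7 or 8 (adjusted p = 0.0691 to 0.134 for Gria1 and 0.0689 to 0.091 for Cacng8), while that of Cacng3 was kept without any 1 preparation. In that fit 3 of 10 members were called, against 29.3% of all genes tested, so the share of the members is about that of the background. Gria2 lay below the control in all 5 preparations after 2 h Bic (20768 and 18830 normalized reads) and its groups did not overlap, yet it was called in neither fit (adjusted p = 0.256 and 0.0518 in the paired fit), only in the paired fit without preparation 1 or 3 (adjusted p = 0.0375 and 0.0322). GABAergic markers were called higher for 2 of 4 in the same comparison, their sum going from 54005 (42153 to 62613) to 65905 (52503 to 73791), and 1 of the 3 glutamatergic markers was lower (sum 71988, range 55335 to 85838, and 77426, range 70259 to 84040). In bulk RNA, fewer cells of a type and less RNA per cell cannot be told apart, and the part of these shifts in the members' values was not tested.

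The passive effect asks what stopping AP firing does to cells already in Bic. In the SP (TTX against 1 h Bic) no member was called, in either fit, and 0 had an unadjusted p under 0.05. Log2 fold changes lay between −0.12 and 0.09, with intervals within −0.36 to 0.22, against 0.268% of all genes called and 0.489% in the paired fit. The LP (TTX against 2 h Bic), with 4.65% of all genes called (3.03% higher, 1.62% lower), gave 1 member. Cacng8 had 3192, 3030, 3248, 3096 and 3008 normalized reads in preparations 1, 3, 6, 7 and 8 after 2 h Bic, and 3089, 2669, 2588, 2389 and 2596 with TTX. It was lower with TTX in all 5 preparations, although preparation 1 with TTX still lay within the range of the Bic libraries. The log2 fold change was −0.23 ± 0.0652 (SE), with an adjusted p = 0.0299. Of all markers, 1 of the oligodendrocyte lineage was called (lower) and no other. The Cacng8 call was lost without preparation 3, 6 or 7 (adjusted p = 0.0744, 0.150 and 0.217) and when all 45 libraries shared 1 fit (adjusted p = 0.121).

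The paired fit called 5 members in the LP passive effect, against 32% of all genes. Gria2 (log2 fold change 0.17 ± 0.0406 SE, adjusted p = 0.00334) and Gria4 (0.13 ± 0.0391, adjusted p = 0.0145) were higher with TTX than with Bic alone. Cacng8 (−0.25 ± 0.0472, adjusted p = 6.18e-04), Cnih2 (−0.19 ± 0.047, adjusted p = 0.00516) and Cnih3 (−0.13 ± 0.0426, adjusted p = 0.0277) were lower. The paired calls of Gria4 and Cnih3 were lost without preparation 6 or 8 (adjusted p = 0.0547 and 0.0528 for Gria4, 0.0925 and 0.0568 for Cnih3), Cnih3 also without 3 (0.175), and that of Cnih2 without 6 (0.0511). Gria2 had 19605, 18850, 18086, 18131 and 19477 normalized reads after 2 h Bic and 20454, 21575, 19913, 20995 and 24622 with TTX, and these groups did not overlap. It thus stood near its control level with TTX, while the counts after 2 h Bic lay below both. Cnih2 had 11316 normalized reads after 2 h Bic and 10045 with TTX, and was lower in 4 of 5 preparations.

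**Figure D2:**
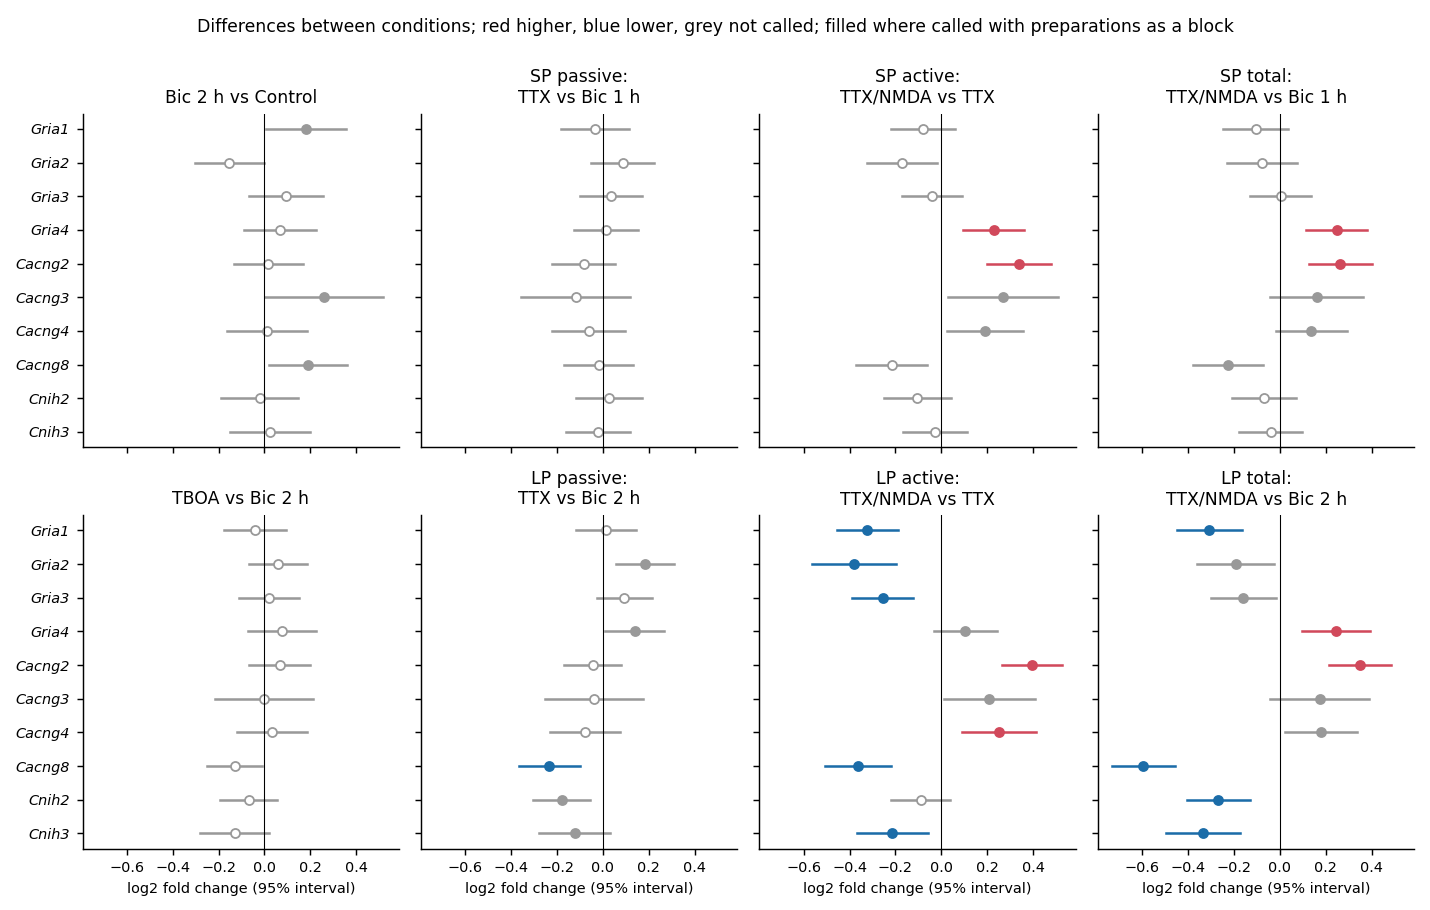
Log2 fold change (x axis) of each member with its 95% interval from edgeR in 8 comparisons. Red and blue mark members called higher and lower at an adjusted p under 0.05, grey those not called, and filled points those called in the paired fit. The LP active and LP total panels hold the most calls, with 7 and 6 members, and Cacng2 is red in all 4 panels with TTX/NMDA.

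The active effect compares TTX/NMDA with TTX alone and asks what NMDA receptor activation adds once firing is blocked. After 0.5 h of NMDA in the SP, 2 members rose and none fell by this test, against 4.28% of all genes called (0.956% higher, 3.32% lower). Cacng2 had 3957, 3665, 3353, 3744 and 3696 normalized reads with TTX in preparations 1, 3, 6, 7 and 8, and 4623, 4388, 5082, 5053 and 4259 with TTX/NMDA. Every library with NMDA lay above every library without it (log2 fold change 0.34 ± 0.0686 SE, adjusted p = 0.0016). Gria4, the pore subunit gene that in hippocampus is known for its expression in interneurons, had 4375, 4306, 4056, 4461 and 3706 normalized reads with TTX and 4847, 4919, 5222, 5094 and 4508 with TTX/NMDA. Its groups did not overlap either (0.23 ± 0.0664, adjusted p = 0.0413), but the call was lost when any of the 5 preparations was left out (adjusted p = 0.061 to 0.145).

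The paired fit made 4 calls, all higher, against 16.2% of all genes. It added Cacng3 (log2 fold change 0.31 ± 0.0896 SE, adjusted p = 0.0376) and Cacng4 (0.20 ± 0.0467, adjusted p = 0.0152). Both paired calls were lost without preparation 1 or 3 (adjusted p = 0.106 and 0.102 for Cacng3, 0.0603 and 0.0705 for Cacng4) and that of Cacng3 without 7 (0.0828). In the unpaired fit, Cacng3 was called only without preparation 8 (adjusted p = 2.89e-04). Cacng3 was higher in 4 of 5 preparations, by 66.3% in 1 of them, where it had the lowest of all its counts with TTX (979 in preparation 6). Without preparation 6 its paired log2 fold change was 0.20 (adjusted p = 0.0244), and Gria2 was called lower (−0.23, adjusted p = 0.0119). Cacng8 was lower with NMDA in all 5 preparations and was not called (−0.22, adjusted p = 0.119 and 0.077 in the paired fit). Its change ranged from −33.8% to −1.33%, with the largest fall in preparation 6 (3372 normalized reads with TTX and 2233 with TTX/NMDA). The 3 glutamatergic markers were all called lower in the same comparison, their sum going from 76386 (66915 to 85822) to 52626 (44677 to 59972), and 3 of 4 GABAergic markers were called higher, from 51252 (44852 to 58066) to 66899 (53069 to 77454). Of the 5 pan-neuronal markers 1 was called lower, and astrocyte markers had no call (20947 and 20056). The part of these shifts in the members' values was not tested.

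Set against 1 h Bic (the SP total effect), the same pair of genes was higher with TTX/NMDA: Gria4 (log2 fold change 0.25 ± 0.066 SE, adjusted p = 0.0198) and Cacng2 (0.26 ± 0.0678, adjusted p = 0.0155). Both sets of groups were free of overlap. All genes were called at 4.3% (0.891% higher, 3.41% lower). The active and total effects share the TTX/NMDA libraries, so they are not independent of each other. Without preparation 7 neither was called (adjusted p = 0.129 and 0.124), and without preparation 6 Gria4 was not (0.0644). The paired fit called 5 members against 27.3% of all genes, with Cacng3 (0.16 ± 0.0491, adjusted p = 0.0232) and Cacng4 (0.13 ± 0.0437, adjusted p = 0.0411) also higher and Cacng8 lower (−0.24 ± 0.0465, adjusted p = 0.00152). The Cacng3 and Cacng4 calls were lost without preparation 1, 3, 6 or 7 (adjusted p = 0.0733 to 0.1 and 0.0723 to 0.21). Without preparation 8, Cacng8 was also called in the unpaired fit (adjusted p = 0.0478), and the paired fit called Gria1 (−0.12, adjusted p = 0.0362) and Gria2 (−0.15, adjusted p = 0.0147) lower. The 3 glutamatergic markers and 1 of the 5 pan-neuronal ones were called lower here too. No GABAergic or astrocyte marker was called, and the part of these shifts in the members' values was not tested.

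With 1 h of NMDA in the LP, members moved in both directions. Of 10 members, 7 were called in the LP active effect, 2 higher and 5 lower, against 23.3% of all genes (11.6% higher, 11.8% lower). Among the 13592 expressed genes, those with a mean of at least 1 in library-scaled counts (CPM), 46.9% were called (20% higher, 26.9% lower). The median log2 fold change was −0.15 over the members and −0.01 over those expressed genes. Fallers were found among pore subunits, TARPs and cornichons alike, and the 2 that rose were both TARP genes.

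Among the pore subunits, Gria1, Gria2 and Gria3 fell. Gria1 had 33573, 31829, 33288, 31312 and 28261 normalized reads with TTX in preparations 1, 3, 6, 7 and 8, and 26571, 26425, 25495, 24862 and 23753 with TTX/NMDA. The groups did not overlap, and the count fell by 19.6% ± 3.05 (SD, n = 5) within preparations (log2 fold change −0.32 ± 0.0651 SE, adjusted p = 3.28e-04). Gria2, the calcium-limiting subunit, went from 20454, 21575, 19913, 20995 and 24622 to 14687, 19151, 16196, 12962 and 20169. All 5 preparations fell, by 11.2 to 38.3%, with the least fall in preparation 3, and preparation 8 with NMDA remained within the range of the TTX libraries (−0.38 ± 0.089, adjusted p = 0.00164). Gria3 fell from 4583 to 3857 without overlap (−0.26 ± 0.0658, adjusted p = 0.00389). Gria4 alone of the 4 did not fall. Its mean was 4821 with TTX and 5211 with TTX/NMDA, higher in 4 of 5 preparations, and it was called only in the paired fit (0.10 ± 0.0672, adjusted p = 0.304, and 0.13 ± 0.0454, adjusted p = 0.0221), where the call was lost without preparation 1, 3, 6 or 8 (adjusted p = 0.0521 to 0.0728).

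The TARP genes moved apart. Cacng2, for stargazin, had 4222, 4052, 4249, 3743 and 3812 normalized reads with TTX and 5419, 5504, 5469, 5139 and 4988 with TTX/NMDA. Its lowest library with NMDA was above the highest without, and all 5 preparations rose, by 28.4 to 37.3% (log2 fold change 0.39 ± 0.0636 SE, adjusted p = 1.95e-05). Cacng8, for γ-8, went from 3089, 2669, 2588, 2389 and 2596 to 2180, 1951, 2094, 2132 and 2052, again without overlap but downward (−0.36 ± 0.0708, adjusted p = 2.26e-04). Cacng4 rose in all 5 preparations from a mean of 2518 to 3020, with overlapping groups (0.25 ± 0.0791, adjusted p = 0.0186), a call that was lost without preparation 6 or 7 (adjusted p = 0.0765 and 0.0905). Cacng3 was higher in all 5 preparations, by 12.4 to 26.6%, and was called in the paired fit (0.23 ± 0.045, adjusted p = 2.75e-04) and without preparation 8 (adjusted p = 0.0335), but not otherwise (0.21 ± 0.0971, adjusted p = 0.13).

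Of the cornichons, Cnih3 fell in all 5 preparations from 2195 to 1905 normalized reads (log2 fold change −0.21 ± 0.0753 SE, adjusted p = 0.0372), a call that was lost without preparation 3, 6 or 7 (adjusted p = 0.126, 0.070 and 0.054) and over the genes that pass filterByExpr alone (adjusted p = 0.060). Cnih2, the most abundant member per kilobase, had 10045 and 9487 normalized reads and was not called in either fit (−0.09, 95% interval −0.22 to 0.04). The paired fit called 9 of 10 members in the LP active effect, with Gria4 and Cacng3 added on the higher side, against 62.1% of all genes.

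**Figure D3:**
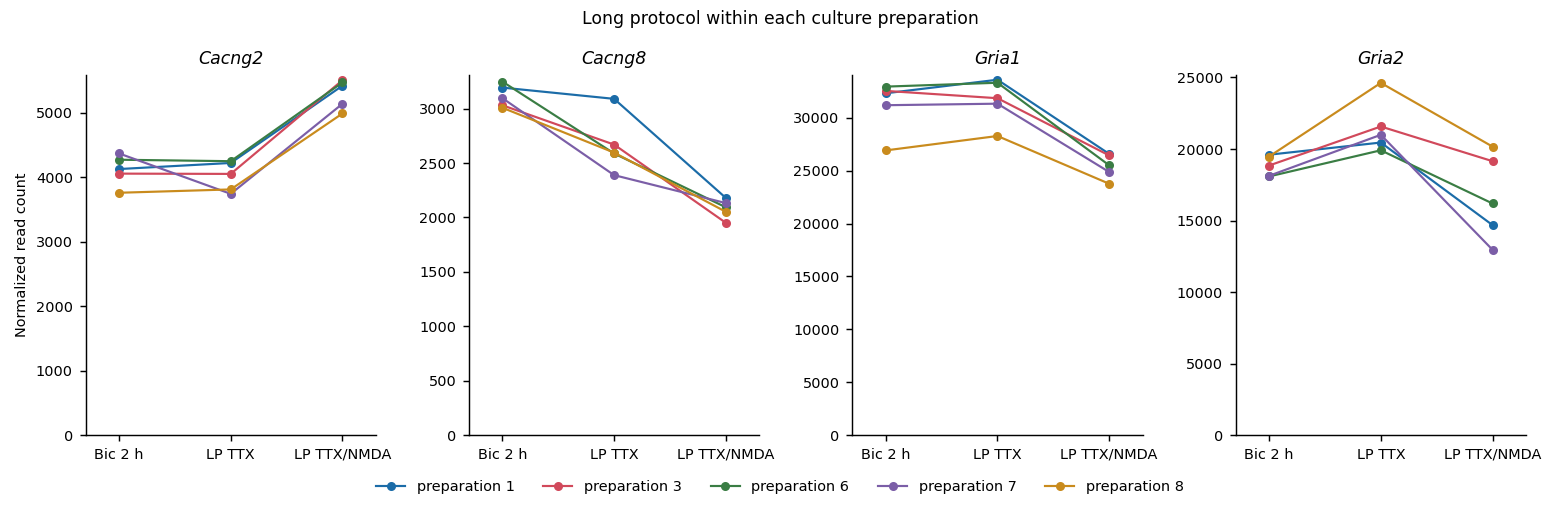
Normalized read count (y axis, linear from 0) of Cacng2, Cacng8, Gria1 and Gria2 after 2 h Bic and with TTX or TTX/NMDA in the second hour. Each line joins the 3 libraries of 1 culture preparation. From TTX to TTX/NMDA all 5 lines rise for Cacng2 and all 5 fall for Cacng8, Gria1 and Gria2.

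Markers of other cells moved in the same comparison. The 3 glutamatergic markers were all called lower, their sum going from 72546 (67090 to 82730) with TTX to 38189 (31788 to 46737) with TTX/NMDA. All 6 astrocyte markers were called higher, from 17350 (12099 to 25041) to 31379 (21401 to 44469), as were 5 of 7 of the oligodendrocyte lineage, from 4411 (3136 to 5207) to 7603 (4940 to 9718), 2 of 4 GABAergic ones, from 64155 (51659 to 77196) to 76830 (59323 to 88912), and 3 of 6 of microglia, from 253 (214 to 294) to 323 (260 to 378). Of the 3 endothelial markers 1 was called higher, their sum going from 52.5 (38.7 to 64.2) to 74.3 (43.9 to 93.4). Of the 5 pan-neuronal markers 2 were lower, and their sum went from 175603 (169569 to 182207) to 146408 (141433 to 151948). The part of these shifts in the rise of Cacng2 and Cacng4 and in the falls of the other members was not tested.

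The LP total effect, TTX/NMDA against 2 h Bic, had 6 members called against 22.8% of all genes (11.7% higher, 11.1% lower), and 45.3% of the expressed ones. Cacng8 was the member with the largest change. From 3008 to 3248 normalized reads after 2 h Bic it went to between 1951 and 2180 with TTX/NMDA, a fall of 31.1 to 35.6% in each of the 5 preparations (log2 fold change −0.59 ± 0.0669 SE, adjusted p = 1.45e-08). It had been called lower at both steps, from Bic to TTX and from TTX to TTX/NMDA, which share the TTX libraries. Gria1 (−0.31 ± 0.07, adjusted p = 0.00102), Cnih3 (−0.33 ± 0.0795, adjusted p = 0.00159) and Cnih2 (−0.27 ± 0.0684, adjusted p = 0.00323) fell as well, each without overlap between the groups. Cacng2 (0.35 ± 0.0666, adjusted p = 1.06e-04) and Gria4 (0.25 ± 0.0729, adjusted p = 0.0116) rose.

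Gria2 had means of 18830 after 2 h Bic, 21512 with TTX and 16633 with TTX/NMDA, and its total effect was −0.19 ± 0.083 (SE, adjusted p = 0.0963), with 2 of 5 preparations higher. Preparation 8, where Gria2 had 20169 normalized reads with TTX/NMDA and 19477 after 2 h Bic, decided this call: without it the log2 fold change was −0.26 (adjusted p = 0.00156) and all 10 members were called, 4 higher and 6 lower. The paired fit also called all 10, 4 higher and 6 lower, against 56.6% of all genes. There, Gria2 was not called without preparation 1, 6 or 7 (−0.12, −0.20 and −0.12, adjusted p = 0.148, 0.0692 and 0.205), nor Gria3 without 1, 3, 6 or 7 (adjusted p = 0.0812 to 0.144). Marker sums differed between these groups as in the active effect, with all 3 glutamatergic markers lower and all 6 astrocyte markers higher against 2 h Bic, and their part was not tested.

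Whether the longer exposure acted differently from the shorter was tested as the difference of the 2 active effects. No member was called by this test, against 2.57% of all genes, and 2 had an unadjusted p under 0.05. These were Gria1 (−0.23 ± 0.0894 SE, adjusted p = 0.201) and Gria3 (−0.20 ± 0.0862, adjusted p = 0.267). In the paired fit, 3 members were called, against 25% of all genes, all with a more negative effect in the LP: Gria1 (−0.24 ± 0.0522, adjusted p = 0.00229), Gria3 (−0.22 ± 0.0626, adjusted p = 0.0157) and Cnih3 (−0.18 ± 0.061, adjusted p = 0.0354). The Gria1 call was kept without any 1 preparation. That of Gria3 was lost without 1, 6 or 8 (adjusted p = 0.0729 to 0.105) and that of Cnih3 without any of the 5 (0.0857 to 0.204), and without preparation 6 Cacng8 was called (−0.23, adjusted p = 0.0357). The rise of Cacng2 differed between the protocols by 0.07 on the log2 scale (95% interval −0.11 to 0.25), an interval that holds differences of either sign. For the passive effect, 0 of 10 members differed between LP and SP by either fit, 2 had an unadjusted p under 0.05, and 0.256% of all genes were called (2.01% in the paired fit).

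TBOA moved no member past the threshold. Against 2 h Bic, log2 fold changes lay between −0.13 and 0.08, and 1 member had an unadjusted p under 0.05, with 0.602% of all genes called. The paired fit called no member and 2.67% of all genes. The member with the low unadjusted p was Cacng8, with 2923, 2674, 2670, 2995 and 2849 normalized reads with TBOA, all below the lowest library of 2 h Bic (−0.13, 95% interval −0.25 to −0.01, adjusted p = 0.589). The TBOA libraries span from 11455443 to 81129276 counts, the widest range of any condition.

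Shares within the pore subunit pool, computed per library from levels per kilobase, give the makeup of the pool. Gria1 made up 65.2% ± 2.66 (SD, n = 5) of the pool in the control, Gria2 19.5% ± 2.37, Gria4 9.49% ± 0.38 and Gria3 5.84% ± 0.37. After 2 h Bic the share of Gria1 was higher by 3.62 percentage points and that of Gria2 differed by −3.29 points (2 h Bic minus control), each in all 5 preparations. The share of Gria4 was 9.28% ± 0.42 with TTX and 11.3% ± 0.31 with TTX/NMDA in the SP, and 9.74% ± 0.25 and 12.7% ± 0.59 in the LP, with no overlap between the libraries in either protocol. The Gria2 share, in contrast, was 17.7% ± 2.15 with TTX and 16.4% ± 2.63 with TTX/NMDA in the LP, lower in 3 of 5 preparations. The ratio of Gria2 to Gria1 per kilobase was 0.266 ± 0.043 and 0.255 ± 0.052 in these conditions, a difference within the spread between preparations. The summed level of the 4 genes was 7851 ± 272 per kilobase with TTX and 6494 ± 336 with TTX/NMDA in the LP, without overlap, and 7142 ± 356 and 6881 ± 311 in the SP, where the libraries overlapped.

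Among the TARPs, the share of Cacng8 was lower and that of Cacng2 higher with TTX/NMDA than with TTX. The summed level of Cacng2, Cacng3, Cacng4 and Cacng8 was 3395 ± 110 per kilobase after 2 h Bic, 3139 ± 175 with TTX and 3355 (range 3297 to 3423) with TTX/NMDA in the LP. The last group lay within the range of the first and above all 5 libraries with TTX alone (at most 3274). Cacng8 held 37.2% ± 4.22 of the pool in the control, 39.1% ± 1.69 after 2 h Bic, 36.2% ± 2.51 with TTX and 26.5% ± 1.26 with TTX/NMDA. Cacng2 held 23.7% ± 2.31 in the control, 23.3% ± 1.41 with TTX and 28.7% ± 1.39 with TTX/NMDA. The level of Cacng8 per kilobase was thus 1.78 ± 0.079 times that of Cacng2 after 2 h Bic, 1.56 ± 0.109 times with TTX and 0.924 ± 0.059 times with TTX/NMDA, and all 5 libraries of the last group lay below the lowest of the other 8 conditions (1.03, in the SP with TTX/NMDA). The SP with TTX/NMDA, at 1.31 ± 0.198 times, was also below the SP with TTX, at 1.92 ± 0.266 times, without overlap. With TBOA the ratio was 1.56 ± 0.158. Which of Cacng8 and Cacng2 is the larger depends on the length used. With the principal transcript (1897 bases for Cacng8 in place of 2345) the ratio was 1.93 ± 0.135 with TTX and 1.14 ± 0.0725 with TTX/NMDA in the LP, above 1 in each library, and without division by length it was 0.664 ± 0.0464 and 0.393 ± 0.025. A change of length multiplies this ratio by the same factor in every library. The order of the conditions and their lack of overlap are thus the same under each scaling by construction, which adds no support. These shares and ratios are a description of levels relative to each other, with no test.

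**Figure D4:**
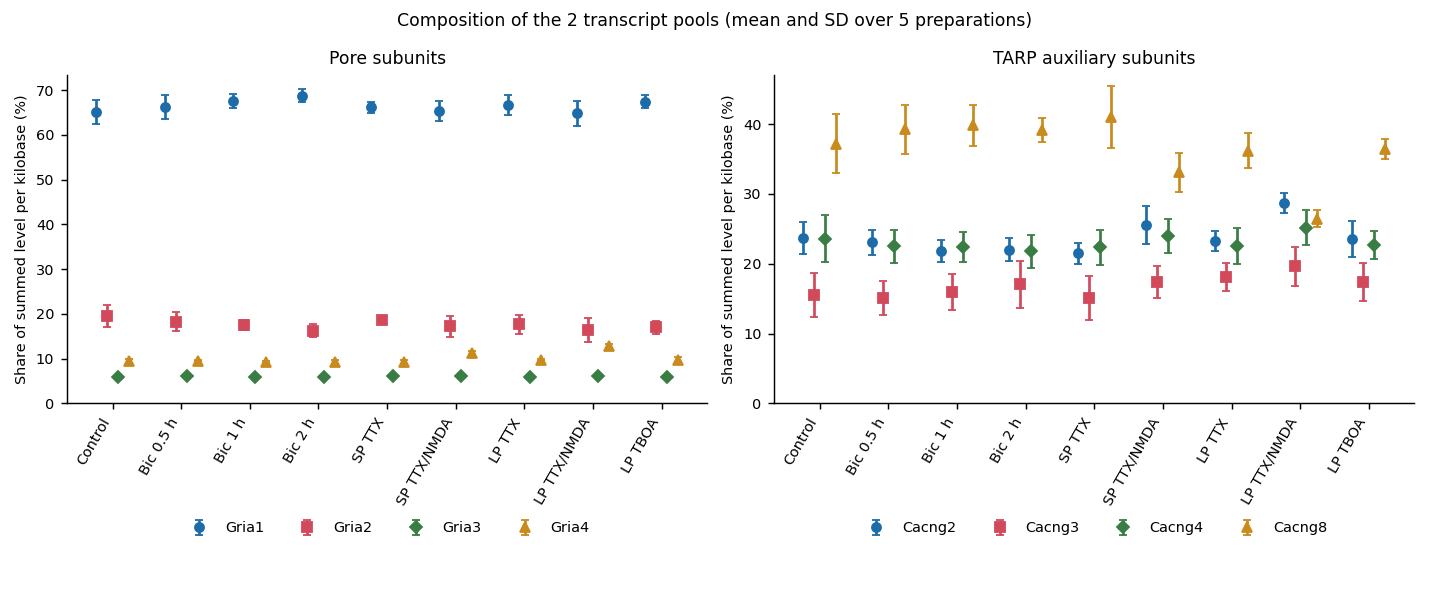
Share (%) of each gene in the summed level per kilobase of the 4 pore subunit genes (left) and of the 4 TARP genes (right) by condition. Points are means and bars the SD over 5 preparations. Gria4 rises to 11.3% and 12.7% with TTX/NMDA in the SP and LP, and Cacng8 falls from 36.2% to 26.5% between LP TTX and LP TTX/NMDA. Which TARP share is largest there depends on the gene length used (Cacng2 with all exons, Cacng8 with the principal transcript).

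Other genes of the receptor were taken from 2 lists. Of 22 further auxiliary, assembly and clustering genes, 1 was called higher and 9 lower in the LP active effect, with a median log2 fold change of −0.17. Over all genes tested 23.3% were called, and of the expressed ones 46.9% (20% higher, 26.9% lower), with a median of −0.01, so the share called in the list is near that of expressed genes. The single rise was Olfm2, a secreted olfactomedin found in native AMPA receptor complexes (4702 and 5524 normalized reads, log2 fold change 0.22 ± 0.0679 SE, adjusted p = 0.0142). The 2 largest falls were Prrt2 and Nptx1. Prrt2 was near the floor of detection, with means of 6.91 and 1.26 normalized reads (−2.80 ± 0.641, adjusted p = 0.00137), and did not pass filterByExpr. Nptx1, a neuronal pentraxin that clusters AMPA receptors from outside the cell, fell from 9818 to 3035 (−1.70 ± 0.0969, adjusted p = 6.96e-14). Against 2 h Bic, 1 of these genes was higher and 12 lower (45.3% of expressed genes called, 20.2% higher and 25.1% lower). In the SP active effect 1 was higher and 5 lower (expressed genes 9.54%), in the LP passive effect 2 and 1 (10.4%), and with TBOA 0 and 1 (1.37%). After 2 h Bic against the control, where 18.6% of expressed genes were called, 2 were higher: the pentraxin Nptx2, from 758 to 3658 normalized reads (2.26 ± 0.145, adjusted p = 1.58e-14), and Shisa7, an auxiliary subunit (0.32 ± 0.0977, adjusted p = 0.0322). Nptx2 was then lower in the LP active effect (−1.14 ± 0.149, adjusted p = 7.15e-07).

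Of 12 genes for trafficking, anchoring and RNA editing, 2 were called higher and 5 lower in the LP active effect, with a median of −0.14, against the same 23.3% of all genes and 46.9% of the expressed ones. In the SP active effect 0 were higher and 3 lower, in the LP passive effect 0 and 1, in the LP total effect 0 and 7, and with TBOA none was called, against 9.54%, 10.4%, 45.3% and 1.37% of expressed genes. The rises were Arc, the activity-induced gene whose protein promotes AMPA receptor endocytosis (8030 and 17507 normalized reads, 1.12 ± 0.112, adjusted p = 6.24e-09), and Pick1, whose protein binds the GluA2 tail (552 and 717, 0.37 ± 0.0798, adjusted p = 7.42e-04). The largest falls were Nsf, the ATPase that also binds GluA2 (32256 and 19598, −0.73 ± 0.0663, adjusted p = 1.06e-09), and Adarb1, the editing enzyme of the pore loop codon printed above (4346 and 3128, −0.48 ± 0.0664, adjusted p = 1.69e-06). Arc went the other way in the SP active effect (16153 and 7593, −1.10 ± 0.118, adjusted p = 5.12e-08), and the 2 active effects differed (2.23 ± 0.197, adjusted p = 2.44e-10). In the LP total effect Arc was below 2 h Bic (−0.60 ± 0.0933, adjusted p = 5.43e-06). Adarb1 was already lower in the SP active effect (4420 and 3743, −0.25 ± 0.0686, adjusted p = 0.0271). Whether the editing of Gria2 RNA changed cannot be read from counts. After 2 h Bic, Arc rose (710 and 26276, 5.23 ± 0.16, adjusted p = 9.62e-24), as did Adar, which encodes the other editing enzyme ADAR1 (5266 and 7156, 0.43 ± 0.088, adjusted p = 6.26e-04). Both lists were put together with earlier results of these data known.

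**Figure D5:**
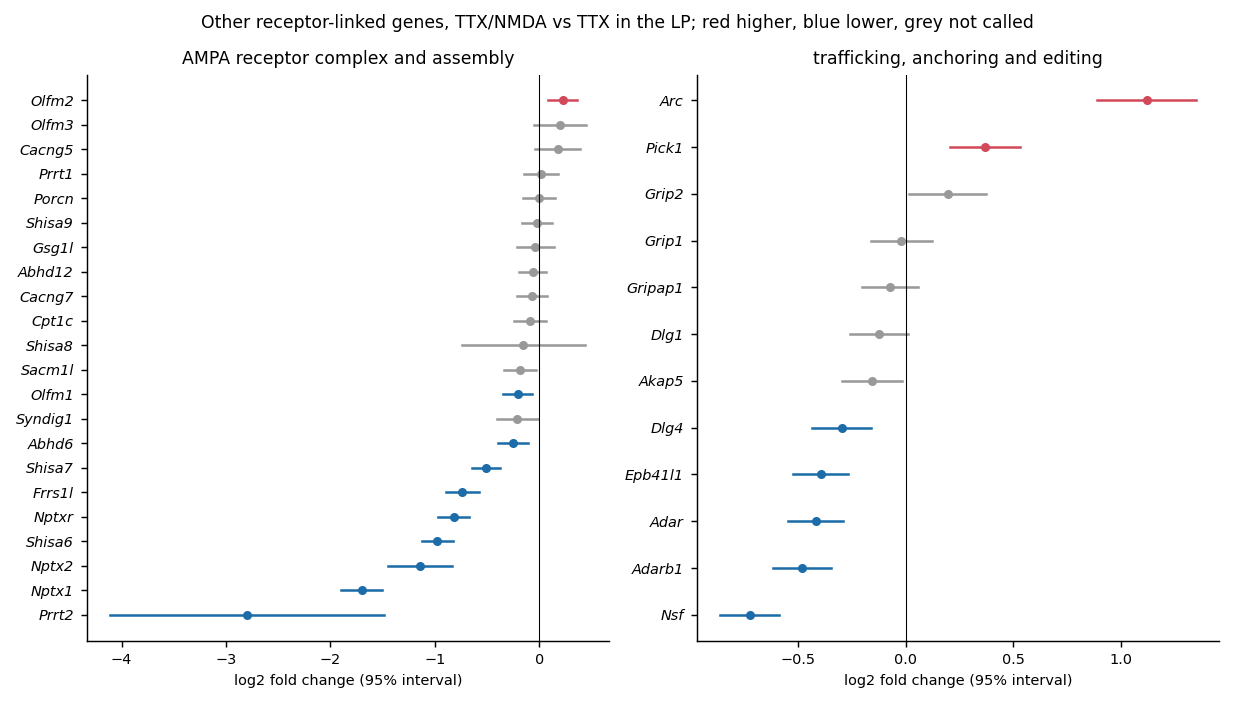
Log2 fold change (x axis) with its 95% interval for 22 further receptor complex and assembly genes (left) and 12 trafficking, anchoring and editing genes (right), TTX/NMDA against TTX in the LP. Red and blue mark genes called higher and lower and grey those not called. Arc and Pick1 are the highest on the right, and Nptx1 and the barely detected Prrt2 the lowest on the left.

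Cacng2, the member with the largest change in the LP active effect, was compared with 13591 other expressed genes over the 9 condition means of log2(CPM + 1). The highest Pearson correlations were with Rpl31 (0.988), Spats2l (0.985), Pld5 (0.982), Tatdn3 (0.978) and Rpl26 (0.977). These are the best of many genes over 9 points that share normalization, so they describe a like profile and no more.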

How the data were processed

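Poly-A RNA from 45 cultures (9 conditions, 5 culture preparations) was sequenced single-end with a strand-specific kit. The authors aligned reads with STAR 2.5.4b to GRCm38 with Ensembl release 94 and counted them per gene with featureCounts 1.6.5. They deposited raw counts per gene, without normalization, which were used as given. Gene symbols were matched for 54409 of 54532 rows. Each pair of conditions was fitted on its 10 libraries with edgeR 4.0.16 (R 4.3.3, TMM, glmQLFit and glmQLFTest) over genes with at least 1 read, and adjusted after Benjamini and Hochberg over all of them. The labels give the culture preparation, so the number pairs libraries. Deviations from condition means correlated by 0.454 on average within a preparation and −0.112 between preparations over 13592 genes. The paired fit adds the preparation over genes that pass filterByExpr. Lengths came from GENCODE M21. The members and lists were chosen with earlier results of these data known. By rule all members were named in each comparison, with the 2 largest rises and falls of each list called in the LP active effect and after 2 h Bic, and the 5 genes most like the member that changed most. Alternatives were DESeq2 1.42.0, its size factors, filterByExpr, a fit of all 45 libraries and leaving out each preparation in both fits. On simulated counts with gene-wise spread, the fit over all genes with at least 1 read made a larger share of false calls than the fits after filterByExpr.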

Additional observations from a re-analysis of the deposited data

Results flagged for a closer look

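Of 90 groups of 5 libraries (10 members in 9 conditions), 2 held a library whose gap to its nearest neighbour was above Dixon's critical share of the group's range, 0.71 for 5 samples. Chance alone gives about 1 in 20 such groups. Gria1 in the SP with TTX/NMDA was 24033 normalized reads in preparation 8, with the other 4 libraries between 27429 and 28809 (gap 0.711 of the range). Cnih2 in the SP with TTX was 13121 in preparation 6, with the others between 10580 and 11102 (gap 0.794 of the range). The active effect differed between LP and SP in the paired fit for Gria1 (log2 difference −0.24), Gria3 (−0.22) and Cnih3 (−0.18), and for none of the members without the block.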

How the results depend on the processing

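No called member changed direction under any alternative run, and DESeq2's size factors changed no call. With preparations as a replicate block over filterByExpr genes, 3 members were called in 2 h Bic against control, 4 in the SP active, 5 in the SP total, 5 in the LP passive and 10 in the LP total effect, and 3 in the LP minus SP active effect. It also called Gria4 and Cacng3 in the LP active effect and changed no other call. In the LP passive effect, filterByExpr alone gave 2 calls, DESeq2 gave 3 and the fit of all 45 libraries 0, against 1. Over all comparisons, the LP passive effect included, DESeq2 added 3 calls and lost 0. Leaving out 1 preparation gave 1 to 2 calls in the SP active effect, 0 to 3 in the SP total, 0 to 2 in the LP passive, 5 to 8 in the LP active and 6 to 10 in the LP total effect, the 10 without preparation 8. In the paired fit, a choice made after seeing the data, it gave 1 to 4 calls after 2 h Bic, 2 to 5 in the SP active, 3 to 7 in the SP total, 2 to 5 in the LP passive, 8 to 9 in the LP active and 8 to 10 in the LP total effect. Gria shares in the control were 48.4% for Gria1 and 37.2% for Gria2 without division by length, and 58.6% and 23.5% with the principal transcript, a length chosen after seeing the data. The Gria4 share in the LP was higher with TTX/NMDA than with TTX under both (10.2% against 7.70%, and 12.1% against 9.27%).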
